A study of Rattus norvegicus with 12 samples.

Results

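The interaction of phenylephrine (PE) and JQ1 was the comparison of interest: whether the 2 compounds together changed a transcript by more or by less than their separate effects add up to. For each gene the JQ1 effect in PE-treated cells (PE + JQ1 minus PE) was set against the JQ1 effect in vehicle-treated cells (JQ1 minus vehicle), within each replicate number. It drew on 8 of the 12 libraries of the series, 2 in each of 4 groups, and the spread between libraries was estimated from all 12. Values were gene FPKM (fragments scaled to transcript length and library size), rescaled between libraries, and were compared as log2(rescaled FPKM + 0.5). A difference of 0 between the JQ1 effects means that the effects added up on the log2 scale, that is, multiplied as fold changes. That difference is called the departure from additivity below. A negative departure puts PE + JQ1 below the additive level and a positive one puts it above.

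The cells were cardiomyocytes of Sprague-Dawley rats aged 1 to 3 days, cultured with the antimitotic AraC at 10 µM until 24 h before treatment and then treated for 24 h. The 4 groups were the acetic acid vehicle with DMSO ("vehicle"), PE at 10 µM with DMSO ("PE"), the acetic acid vehicle with JQ1 at 1 µM ("JQ1"), and PE at 10 µM with JQ1 at 1 µM ("PE + JQ1"). The remaining 4 libraries held endothelin-1 (ET-1) at 100 nM without and with JQ1. The labels give no source for the replicates other than a number, so any p-value reflects only how these libraries vary, and that variation may be technical.

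PE is an agonist of alpha-1 adrenergic receptors, which signal through the G protein Gq to phospholipase C, protein kinase C and the ERK kinases, and it makes cultured cardiomyocytes grow and express fetal genes. JQ1 fills the acetyl-lysine pocket of the BET proteins and takes them off chromatin. BET proteins help to bring the elongation factor P-TEFb, a complex of Cdk9 and a cyclin T, to RNA polymerase II, and Hexim1 holds P-TEFb inactive. The title of the study places P-TEFb in agonist-driven hypertrophy, so the contrast addresses how far a PE response depends on BET proteins.

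Coverage in the 8 libraries summed to 2.38 to 2.965 Gb, and 12357 to 13340 genes reached 1 rescaled FPKM. Cardiomyocyte markers were abundant in every library, with 9 markers summing to 13130 to 29567 rescaled FPKM. The 10 tested fibroblast markers summed to 642 to 1351 in the 4 replicate 1 libraries and to 123.5 to 332 in the 4 of replicate 2. The macrophage marker Cd163 and the erythroid marker Alas2 were listed at 0 in all 8 libraries, and the endothelial marker Vwf did not exceed 0.118 and the Schwann cell marker Sox10 0.073. In bulk RNA, fewer cells of a type and less RNA per cell cannot be told apart.

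Departures were small for most genes and few passed the test. The median absolute departure was 0.14 on the log2 scale over 13793 genes, against 0.20 for the PE effect without JQ1, 0.16 for the PE effect with JQ1, 0.33 for the JQ1 effect in vehicle and 0.35 for the JQ1 effect with PE. By limma on all 12 libraries, with the replicate number as a block and Benjamini-Hochberg adjustment, 10 of 13793 genes departed (0.0725%), 5 above and 5 below the additive level (0.0363% each), and 8 of them by at least 2-fold. Without the block 0 genes passed, the lowest adjusted p was 0.0645, and 717 genes had an unadjusted p under 0.05 against 1716 (12.4%) with it. A fit of the 8 libraries alone called 1 gene, Coa6, a mitochondrial assembly factor that both PE libraries list at 0, and 0 of these 10, whose adjusted p ran there from 0.0503 to 0.193. Leaving out 1 library gave 0 to 9 calls, with 0 calls without PE replicate 1, JQ1 replicate 1, JQ1 replicate 2 or PE + JQ1 replicate 2. At an adjusted p under 0.1 the fit with the block held 40 genes (0.29%).

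The departures of replicates 1 and 2 share no library. Over the 13793 genes they had the same sign in 67.7% and a Pearson correlation of 0.40 (Spearman 0.48), given as a description because genes are not independent replicates. A departure of at least 1 on the log2 scale in both replicates was seen in 70 genes (0.508%), 42 positive and 28 negative.

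**Figure D1:**
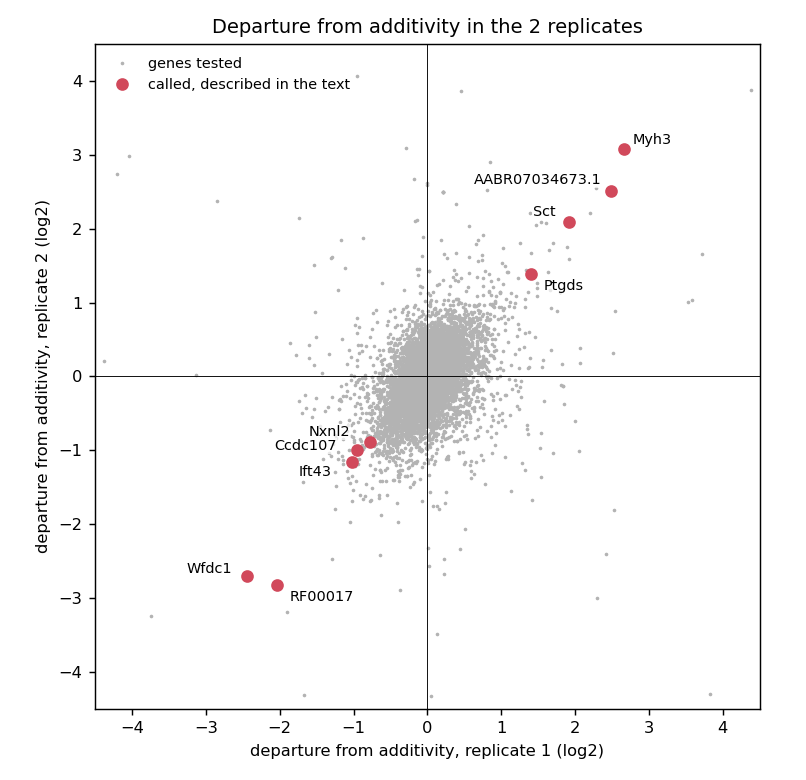
Departure from additivity in replicate 1 (x axis) and replicate 2 (y axis), both on the log2 scale, for the genes tested. Each grey dot is 1 gene and 9 called genes are red and named, with Wfdc1 at −2.44 and −2.71 and Myh3 at 2.66 and 3.07; 16 genes lie beyond the axes.

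The called genes described here fell into 3 patterns: a PE rise that was smaller or absent with JQ1 (Wfdc1, Ift43 and Ccdc107), a fall with JQ1 in vehicle that did not pass under PE (Myh3), and a fall with either compound that did not go further with both (Ptgds, Sct and AABR07034673.1). Nxnl2 and an RF00017 copy stood apart from these. Sct and AABR07034673.1 were listed at 0 with either compound alone, so they could not go further with both. Wfdc1 was near 0 in both groups with JQ1. The patterns were named after the values were seen.

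Wfdc1, which encodes a secreted protein of the whey acidic protein family, had the most negative departure of the called genes. Its level was 1.27 and 1.62 rescaled FPKM in vehicle (replicates 1 and 2), 13.1 and 12.1 with PE, 0 and 0.0497 with JQ1, and 0.211 and 0 with PE + JQ1. Both PE libraries stood above all others, and the groups with and without PE overlapped in the presence of JQ1. PE raised Wfdc1 by 2.76 on the log2 scale without JQ1 (adjusted p = 0.00046), the PE effect with JQ1 was 0.19 (adjusted p = 0.58), and the departure was −2.57 ± 0.28 (SE, adjusted p = 0.035, 0.16 without the block). Additive effects would have put PE + JQ1 at 3.35 and 2.77. With JQ1 alone the gene was near 0, so these levels and the size of the departure depend on the pseudocount. The ratio of group means, PE over vehicle, was 8.73 without JQ1 and 4.25 with JQ1, the latter from values near 0. The gene lies on chromosome 19, 52313795 to 52332697, plus strand, of rn6.

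Ift43 (chromosome 6, 109939345 to 110016644, plus strand), a subunit of the intraflagellar transport complex that moves cargo inside cilia, was well expressed. It stood at 56.3 and 72.9 in vehicle, 112 and 146 with PE, 34.8 and 42.3 with JQ1, and 34.0 and 38.0 with PE + JQ1. PE raised it by 0.99 on the log2 scale (adjusted p = 0.00046), while with JQ1 the PE effect was −0.09 (adjusted p = 0.43). The departure was −1.09 ± 0.10 (adjusted p = 0.027, 0.74 without the block), with −1.02 in replicate 1 and −1.16 in replicate 2. A copy of the small RNA family RF00001 overlaps it on the opposite strand.

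Ccdc107, a gene of a coiled-coil protein on chromosome 5 (58995249 to 58997953, plus strand), kept part of its PE response. Its levels were 42.3 and 63.3 in vehicle, 134 and 187 with PE, 45.2 and 65.1 with JQ1, and 73.3 and 95.6 with PE + JQ1. JQ1 alone gave a difference of 0.07 (adjusted p = 0.52), and in the presence of PE it lowered the gene by −0.91 (adjusted p = 7.1e-05). PE raised Ccdc107 by 1.60 without JQ1 and by 0.62 with it, a departure of −0.98 ± 0.11 (adjusted p = 0.041, 1 without the block). The gene overlaps Arhgef39 on the opposite strand. The kit was stranded, but no source used here states how strand was handled in quantification, so the reads of Ccdc107 are uncertain.

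Nxnl2, a thioredoxin-like gene known from photoreceptor survival (chromosome 17, 14053896 to 14058642, minus strand), was lowered by JQ1 in both settings and further under PE. It was 19.6 and 13.5 in vehicle, 16.6 and 12.5 with PE, 10.9 and 8.05 with JQ1, and 5.18 and 3.81 with PE + JQ1. Within each replicate PE + JQ1 was the lowest of the 4 libraries. The PE effect was −0.17 without JQ1 (adjusted p = 0.083) and −1.0 with it (adjusted p = 0.0015), a departure of −0.83 ± 0.09 (adjusted p = 0.035, 0.97 without the block).

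Myh3, the embryonic myosin heavy chain of skeletal muscle (chromosome 10, 53621375 to 53645194, plus strand), had the most positive departure of the called genes. It was 4.78 and 6.28 in vehicle and 6.65 and 9.39 with PE. With JQ1 alone it was 0.0927 and 0.209, and with PE + JQ1 it was 4.57 and 8.21. The 2 libraries with JQ1 alone were far below the other 6, which overlapped. JQ1 lowered Myh3 by −3.21 in vehicle (adjusted p = 1.4e-05) and by −0.34 in PE-treated cells (adjusted p = 0.12), and the departure was 2.87 ± 0.24 (adjusted p = 0.016, 0.51 without the block). The additive level of PE + JQ1 was 0.302 and 0.534. With ET-1 in place of PE the levels were 7.35 and 10.2 without JQ1 and 6.02 and 12.3 with it. Myh3 overlaps the gene AABR07029830.1 on the same strand and is similar in sequence to Myh6 and Myh7, and reads could be shared. Those cardiac myosin heavy chains were abundant, and sharing of reads was not tested. Myh7 was 1409 and 1895 in vehicle and 904 and 1635 with JQ1 alone (JQ1 effect −0.43, adjusted p = 0.046).

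Ptgds, which makes prostaglandin D2 and also carries small lipids (chromosome 3, 2686123 to 2689084, minus strand), was lowered by either compound alone and not further by both. It was 48.4 and 29.0 in vehicle, 23.6 and 12.7 with PE, 18.5 and 11.4 with JQ1, and 24.4 and 13.4 with PE + JQ1. Replicate 1 was above replicate 2 in every group. PE lowered the gene by −1.09 without JQ1 (adjusted p = 0.00096), with JQ1 the PE effect was 0.31 (adjusted p = 0.099), and the departure was 1.39 ± 0.15 (adjusted p = 0.035, 1 without the block). The summed fibroblast markers showed the same order of replicates, and their part in this result was not tested.

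**Figure D2:**
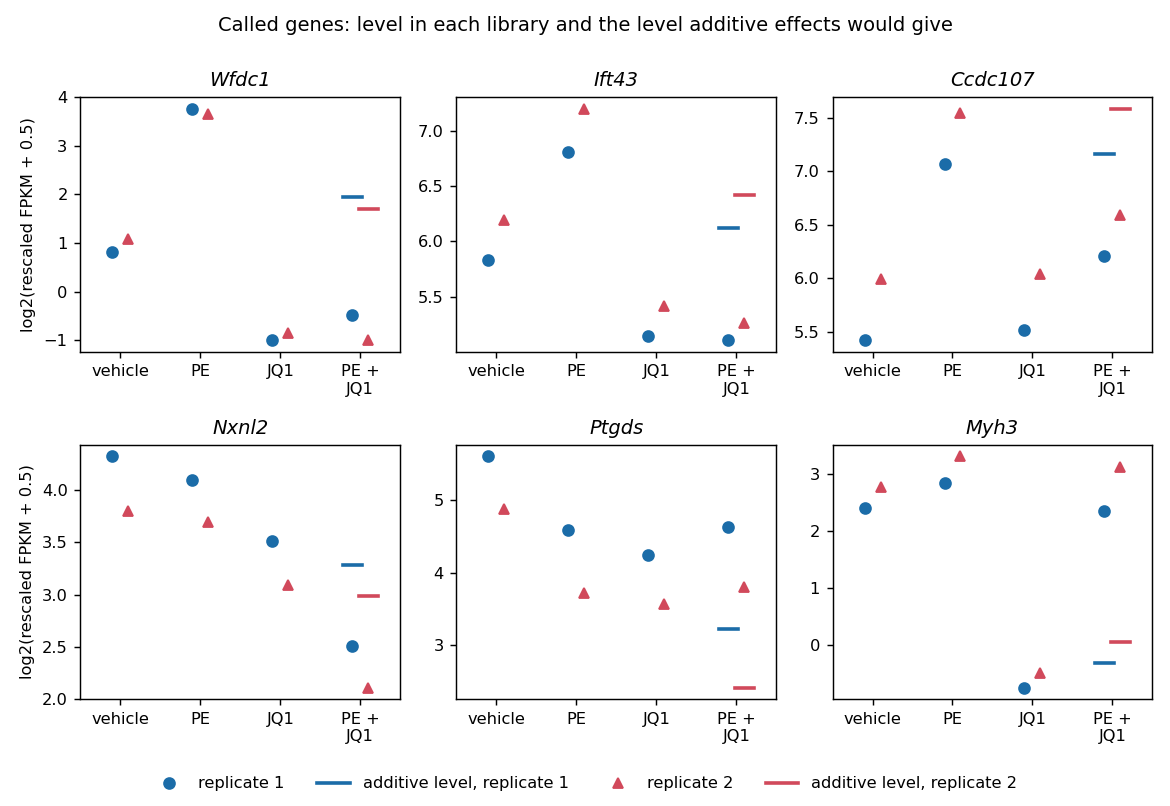
Level of 6 called genes in each of the 8 libraries as log2(rescaled FPKM + 0.5), by group (x axis), with circles for replicate 1 and triangles for replicate 2. Short bars give the level of PE + JQ1 that additive effects would give in the same replicate; the PE + JQ1 points lie below the bars for Wfdc1, Ift43, Ccdc107 and Nxnl2 and above them for Ptgds and Myh3.

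Of the called genes outside the rule for named genes, because of low levels or placeholder names, 3 are described, chosen after their values were seen. Sct, the secretin gene, was 1.39 and 1.63 in vehicle and listed at 0 in the other 6 libraries (departure 2.0, adjusted p = 0.030, 0.39 without the block). The unnamed gene AABR07034673.1 was 2.30 and 2.35 in vehicle and likewise listed at 0 in the other 6 (departure 2.50, adjusted p = 0.0061, 0.065 without the block). For both genes the additive level lay below 0 in both replicates, a level that no library can take, so a positive departure was fixed once each compound alone had brought the gene near 0, and its size follows the pseudocount.

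The other one was the RF00017 entry, a small RNA copy, on chromosome 19 (22476964 to 22477262, plus strand). It was 86.0 and 92.3 in vehicle, 337 and 660 with PE, 294 and 486 with JQ1, and 280 and 490 with PE + JQ1 (departure −2.43 ± 0.28, adjusted p = 0.038, 0.74 without the block). Each compound raised it, and the 2 together gave no more than either. It lies inside Neto2 on the same strand and has near-identical copies, so its reads are uncertain. All 10 called genes also departed in the same direction when additivity was taken on linear rescaled FPKM, in both replicates. Among them, Ptgds, Sct and AABR07034673.1 had a negative linear additive level in both replicates. A positive sign was therefore fixed for these genes and is no separate evidence.

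Promoter sequence was looked up for the 6 named called genes in RefSeq tables of build GRCr8, and 5 had an entry. The windows of Myh3 and Ift43 are shown as those of the called gene with the highest departure and of a well expressed gene whose PE rise was not seen with JQ1, and that of Nppb as the classical PE-induced gene described below. Each holds the 250 bases before the annotated start, 5′ to 3′ on the gene's strand. Capitals mark matches on either strand to 5 motifs. The TATA box was searched for by the letters TATAAA. The M-CAT element, which TEAD factors bind, was searched for as GGAATG. Sites of the GATA factors were searched for with the letters TGATAA. The AP-1 site was searched for as TGANTCA. The E-box was searched for as CANNTG.
Myh3, plus strand, chr10:52268935-52269184: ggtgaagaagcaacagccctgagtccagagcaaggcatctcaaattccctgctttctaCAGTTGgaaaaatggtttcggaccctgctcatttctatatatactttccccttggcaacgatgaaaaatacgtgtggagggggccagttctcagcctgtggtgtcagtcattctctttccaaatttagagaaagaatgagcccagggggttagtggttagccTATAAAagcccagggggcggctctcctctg
Ift43, plus strand, chr6:111460501-111460750: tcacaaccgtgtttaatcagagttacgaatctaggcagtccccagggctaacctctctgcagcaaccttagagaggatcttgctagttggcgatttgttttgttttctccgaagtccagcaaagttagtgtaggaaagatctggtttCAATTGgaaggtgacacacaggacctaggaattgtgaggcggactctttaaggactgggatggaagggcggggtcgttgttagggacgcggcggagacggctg
Nppb, plus strand, chr5:163699758-163700007: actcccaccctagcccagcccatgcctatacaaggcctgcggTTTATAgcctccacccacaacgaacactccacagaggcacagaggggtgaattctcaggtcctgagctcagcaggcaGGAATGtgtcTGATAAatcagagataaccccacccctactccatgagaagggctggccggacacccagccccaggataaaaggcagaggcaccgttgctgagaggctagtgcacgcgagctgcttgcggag
In Myh3 a TATA box match began 30 bases and an E-box 192 bases before the start. Ift43 held 1 E-box, 103 bases before the start, and none of the other motifs. Nppb held an M-CAT match 131 bases and a GATA match 121 bases before the start, which do not overlap, and a TATA box match on the other strand at 208. Of 33469 such windows in the table, 12.9% held the TATA box letters, 12.1% the M-CAT, 8.0% the GATA, 6.3% the AP-1 and 65.5% the E-box letters. These matches describe the letters and do not show that a factor binds.

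Of the 16 hypertrophy and fetal genes 7 had a negative departure (43.8%, against 48.7% of all genes), and 0 departed by the test (0.0725% of all genes). PE raised 9 of them without JQ1 and 9 with JQ1 (11.8% and 6.17% of all genes rose), and without the block 4 and 0 (398 and 53 of all 13793 genes). Nppb, which encodes the B-type natriuretic peptide, was 410 and 811 in vehicle, 2300 and 4253 with PE, 508 and 848 with JQ1, and 1534 and 2425 with PE + JQ1. The PE libraries were above the PE + JQ1 library of the same replicate, and PE raised Nppb by 2.44 without JQ1 and 1.55 with it (departure −0.88 ± 0.27, adjusted p = 0.26). Nppa, the atrial natriuretic peptide, was 2622 and 4720 in vehicle, 6607 and 12830 with PE, 3739 and 6016 with JQ1, and 6471 and 10630 with PE + JQ1 (departure −0.58 ± 0.19, adjusted p = 0.29). Tnfrsf12a, the receptor of the cytokine TWEAK, showed −0.65 in each replicate (adjusted p = 0.27).

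Other stress genes of the heart also rose with PE in the presence of JQ1. Ankrd1, a titin-associated stress protein, rose from 1128 and 1863 to 4375 and 6142 with PE, and from 1916 and 2846 to 6293 and 8833 when JQ1 was present (PE effects 1.84 and 1.68, departure −0.16 ± 0.18, adjusted p = 0.78, and −0.25 without vehicle replicate 2 to −0.08 without vehicle replicate 1). Acta1, skeletal alpha-actin, was 201 and 547 in vehicle, 1683 and 1725 with PE, 466 and 1026 with JQ1, and 3738 and 4404 with PE + JQ1 (departure 0.19 ± 0.49, adjusted p = 0.92). PE + JQ1 was thus the highest group for both genes. The LIM-domain genes Fhl1 (0.46 ± 0.28) and Csrp3 (0.57 ± 0.29) leaned upward without passing (adjusted p = 0.56 and 0.47), and Myh6 (−0.17 ± 0.27) and Myh7 (0.19 ± 0.22) had adjusted p of 0.85 and 0.78. The interval of the Acta1 departure is wide at this number of libraries, and a miss of the threshold does not show additivity.

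**Figure D3:**
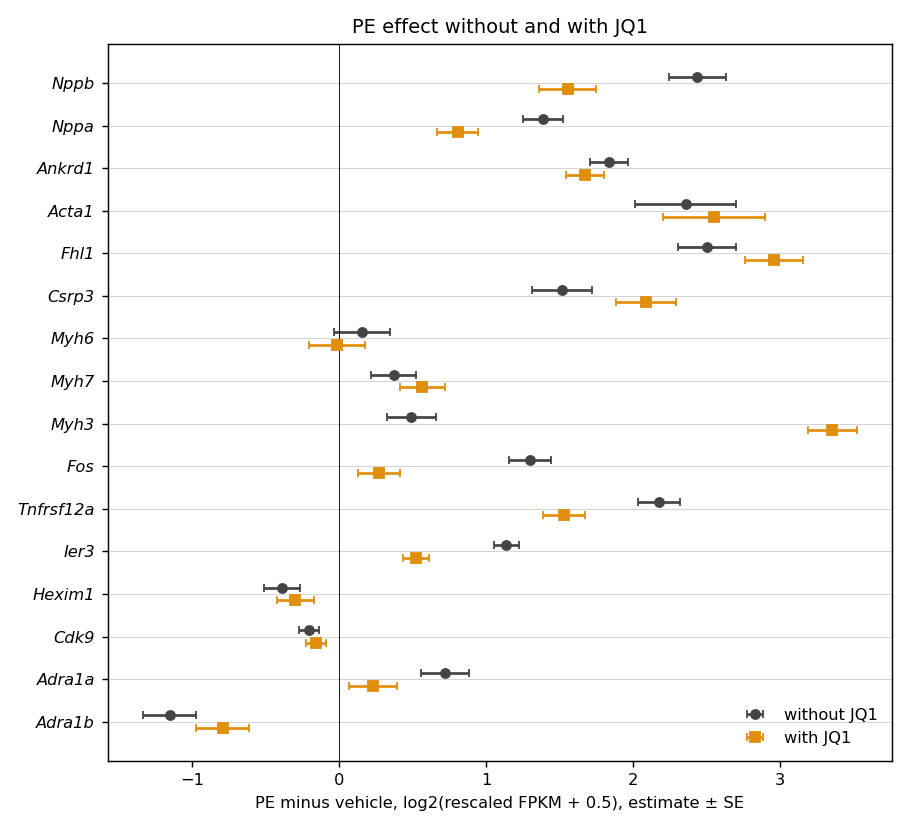
PE effect (PE minus vehicle, log2 scale, estimate ± SE from limma with the block) without JQ1 (grey circles) and with JQ1 (orange squares) for 16 genes. The gap between the 2 points of a gene is its departure: Myh3 goes from 0.49 to 3.36, Nppb from 2.44 to 1.55 and Ankrd1 from 1.84 to 1.68; of these 16 genes only Myh3 was called.

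Signalling genes next to the receptor were measured for the pathway that PE uses. Adra1a, the alpha-1A receptor, was 4.39 and 6.41 in vehicle, 6.84 and 12 with PE, 1.77 and 2.38 with JQ1, and 2.34 and 2.68 with PE + JQ1, so JQ1 lowered it by −1.18 in vehicle and −1.67 with PE (departure −0.49 ± 0.24, adjusted p = 0.45). Without PE + JQ1 replicate 1 or 2 that departure was −0.69 or −0.29. Adra1b, the alpha-1B receptor, was lowered by each compound and had a departure of 0.36 ± 0.26 (adjusted p = 0.62), which was 0.62 without vehicle replicate 1 and 0.10 without vehicle replicate 2. Of 20 tested genes of Gq-coupled signalling 0 were called and their median departure was −0.09, against 0.007 for all genes tested, and −0.04 without PE replicate 2.

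Immediate early genes and ERK feedback genes, which respond fast to growth signals, had 0 calls among 20 and 14. Fos, a subunit of AP-1, came nearest in size: 2.71 and 3.96 in vehicle, 8.09 and 9.63 with PE, 4.91 and 7.70 with JQ1, and 6.41 and 8.88 with PE + JQ1. PE raised Fos by 1.3 without JQ1 (adjusted p = 0.0014) and the PE effect with JQ1 was 0.27 (adjusted p = 0.25), a departure of −1.03 ± 0.20 (adjusted p = 0.14). Negative values without a call were also given by Maff (−0.81), Klf4 (−0.64) and Ier3 (−0.61), and positive ones by Nr4a1 (0.85) and Myc (0.73 ± 0.58, adjusted p = 0.67, and 1.15 or 0.31 without PE + JQ1 replicate 1 or 2). The median over the immediate early genes was −0.21, with 11 of 20 negative in both replicates (55%, against 33.3% of all genes). It was −0.30 without JQ1 replicate 1 and −0.06 without JQ1 replicate 2. In the ERK feedback list the transcription factor Etv4 (−0.94) and the inhibitor Spry1 (−0.74) were lowest, and the list's median was −0.10, or −0.26 without vehicle replicate 1 and −0.06 without PE + JQ1 replicate 2.

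Cell cycle genes leaned below the additive level, although 0 of 30 were called. Their median departure was −0.53, 27 of 30 were negative in both replicates (90%, against 33.3% of all genes), and 16 had an unadjusted p under 0.05 (53.3%, against 12.4%). Ccnb1, the mitotic cyclin B1, was 36.0 and 38.4 in vehicle, 48.2 and 51.6 with PE, 33.1 and 30.8 with JQ1, and 28.1 and 24.7 with PE + JQ1. PE libraries were thus the highest and PE + JQ1 libraries the lowest (departure −0.69 ± 0.11, adjusted p = 0.11). Aurka, a kinase of the spindle poles, had −0.73 ± 0.12 (adjusted p = 0.11), and Kif23, a motor needed for cell division, −0.75 ± 0.15 (adjusted p = 0.14). By the simple effects, PE raised 2 and lowered 0 of the 30 without JQ1 and raised 0 and lowered 11 with JQ1 (5.89% of all genes fell). Without the block these counts were 2 and 0, and then 0 and 0.

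The replication licensing genes Mcm3 (−0.68), Mcm5 (−0.67) and Mcm6 (−0.63) had values like those of the mitotic genes. The 2 members above 0 in both replicates were Cdkn1a (0.71 ± 0.34, adjusted p = 0.45), which encodes the cell cycle inhibitor p21, and Ccnd2 (0.35), cyclin D2. Cdkn1a was 110 and 79.4 in vehicle, 103 and 84.5 with PE, 129 and 111 with JQ1, and 171 and 222 with PE + JQ1, where both libraries were above the other 6. Beyond the list, Fbxo5, an inhibitor of the anaphase-promoting complex, had −0.71 ± 0.10, Cep55, a cytokinesis protein, −0.75 ± 0.11, and Cdca8, a subunit of the chromosomal passenger complex, −0.54 ± 0.08, with adjusted p of 0.070, 0.070 and 0.089. These 3 were picked after their values were seen.

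Sterol synthesis genes, which make cholesterol under control of the factor Srebf2, were negative throughout, with 0 of 22 called. All 22 departures were negative in both replicates (33.3% of all genes were), from −1.19 for Fdps to −0.22 for Ebp, with a median of −0.46, which was −0.67 without PE replicate 1 and −0.27 without PE replicate 2. PE raised 16 of 22 without JQ1 and 2 with JQ1, where 11.8% and 6.17% of all genes rose. Without the block it raised 4 and 0 of the 22, and 398 and 53 of all 13793 genes. The list summed to 851 and 674 in vehicle, 1831 and 1785 with PE, 1057 and 492 with JQ1, and 1476 and 704 with PE + JQ1. The sums of replicates 1 and 2 lay close together with PE and far apart in both groups with JQ1. Fdps, farnesyl diphosphate synthase, was 210 and 145, 574 and 553, 274 and 88.3, and 384 and 126 in the same order (departure −1.19 ± 0.61, adjusted p = 0.47). Mvd, an enzyme of the mevalonate pathway with closer replicates, had −0.46 ± 0.09 (adjusted p = 0.14).

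Fibroblast markers and matrix genes leaned the other way, and 0 of 10 and 0 of 28 were called. All 10 tested fibroblast markers had a positive departure, 9 of them in both replicates (90%, against 34.4% of all genes), with a median of 0.35, or 0.23 without PE + JQ1 replicate 1. JQ1 lowered all 10 in vehicle and all 10 in PE (27.9% and 29.7% of all genes fell). It lowered 0 in either without the block (32.0% and 36.5% of all genes were called there, up or down). Falls alone without the block numbered 2299 in vehicle and 2615 in PE of all 13793 genes. Col1a1, a chain of collagen I, was 200 and 62.8 in vehicle, 158 and 40.1 with PE, 124 and 32.9 with JQ1, and 131 and 27.9 with PE + JQ1 (departure 0.41 ± 0.17, adjusted p = 0.39). Eln, elastin, came nearer to the threshold: 158 and 77.8 in vehicle, 79.5 and 35.3 with PE, 37.5 and 18.7 with JQ1, and 37.8 and 14.7 with PE + JQ1 (departure 0.90 ± 0.12, adjusted p = 0.070). Replicate 1 was above replicate 2 for both genes in every group. The median of the matrix list was 0.19, or 0.08 without PE + JQ1 replicate 1.

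Genes of energy metabolism had small departures whose sign differed between lists. Of 19 nuclear-encoded respiratory chain genes 17 were negative in both replicates (89.5%, against 33.3% of all genes), with a median of −0.26. Cox7a1 was lowest at −0.80 ± 0.21 (adjusted p = 0.21) and Cox8b highest at 0.59 ± 0.18 (adjusted p = 0.25). Of 13 mitochondrially encoded transcripts 1 was negative (7.7%, against 48.7% of all genes) and the median was 0.22. The mitochondrial share of bases ran from 1.2 to 3.4% between libraries. Of 23 fatty acid oxidation genes, also encoded in the nucleus, 16 were positive, 10 of them in both replicates (43.5%, against 34.4% of all genes), with a median of 0.045. That median was −0.12 without JQ1 replicate 1 and 0.26 without JQ1 replicate 2. Glycolysis genes had a median of −0.18, or −0.29 without vehicle replicate 2. Without PE + JQ1 replicate 1 or 2 the median was −0.37 or −0.16 for the nuclear-encoded respiratory chain and 0.14 or 0.28 for the mitochondrially encoded transcripts. In these 4 lists 0 genes were called.

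The genes of the machinery that JQ1 acts on had small departures. Of 23 P-TEFb and BET genes 0 were called and their departures ran from −0.13 to 0.33. Their median was 0.12, against 0.007 for all genes tested, or 0.06 without vehicle replicate 2. In both replicates 12 were positive (52.2%, against 34.4% of all genes). Hexim1 was 23.6 and 27.6 in vehicle, 21.6 and 17.4 with PE, 107 and 110 with JQ1, and 96.1 and 81.0 with PE + JQ1, so JQ1 raised it by 2.07 in vehicle, where 24.9% of all genes rose, and by 2.16 with PE (departure 0.09 ± 0.18, adjusted p = 0.89). Brd2 went from 15.5 and 17.7 to 56.2 and 56.4 with JQ1 and from 14.4 and 15.6 to 63.0 and 60.4 in the presence of PE (departure 0.27 ± 0.10, adjusted p = 0.34). Cdk9, the kinase of P-TEFb, had 0.04 ± 0.10 (adjusted p = 0.90). In stress response genes 0 of 21 were called and the median was 0.32, or 0.12 without PE replicate 2 and 0.49 without PE + JQ1 replicate 1. There the replicates differed: Asns, asparagine synthetase, departed by 0.36 in replicate 1 and 1.44 in replicate 2, and Phgdh, the first enzyme of serine synthesis, by 0.18 and 1.85.

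**Figure D4:**
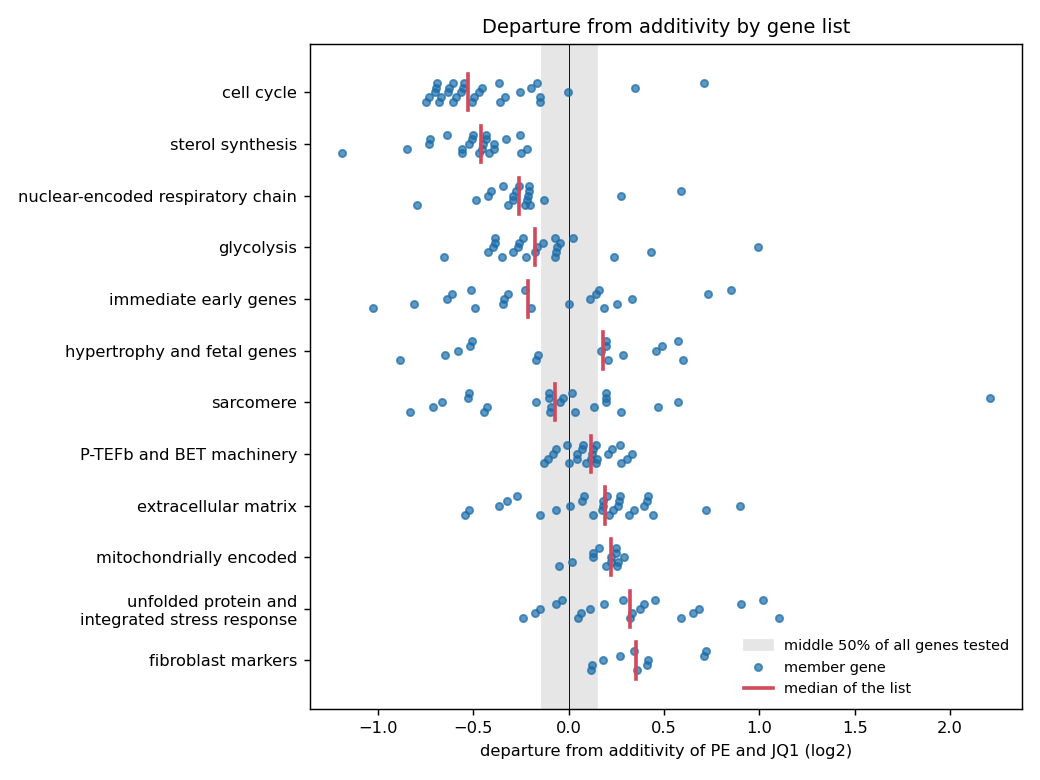
Departure from additivity (log2, x axis) of each tested member of 12 gene lists; each point is 1 gene, red bars are list medians and the grey band holds the middle 50% of all genes tested (−0.14 to 0.15). Cell cycle (median −0.53) and sterol synthesis (−0.46) lie lowest and fibroblast markers (0.35) highest. The point at 2.21 in the sarcomere list is Myom3, whose additive level was negative, so that a positive departure was fixed.

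Between an adjusted p of 0.05 and 0.1 lay 30 genes, 17 positive and 13 negative, described here without a call. Among the negative ones, Crym, a thyroid hormone-binding protein, was 9.37 and 5.47 in vehicle, 19.0 and 12.3 with PE, 8.57 and 4.69 with JQ1, and 7.05 and 2.71 with PE + JQ1 (−1.52 ± 0.21). Rxfp1, the relaxin receptor, was 6.53 and 11.9, 14.5 and 22.6, 2.29 and 4.60, and 2.77 and 4.40 in the same order (−0.91 ± 0.13). In both genes and both replicates PE was above vehicle and PE + JQ1 below it. Among the positive ones, Rab3b, a GTPase of vesicle release, was 19.2 and 18.9 in vehicle, 4.77 and 3.69 with PE, 1.41 and 1.39 with JQ1, and 0.791 and 0.604 with PE + JQ1 (1.38 ± 0.19). Myom3, an M-band protein, was 4.92 and 3.21 in vehicle and at most 0.602 in the other 6 libraries (2.21 ± 0.30). The additive level of Myom3 was negative in both replicates (−0.389 and −0.384), so a positive departure was fixed and its size follows the pseudocount. For Rab3b the additive level was 0.012 and −0.092, so its departure also depends on the pseudocount. Vamp1, a vesicle fusion protein, was 9.12 and 6.39, 3.79 and 3.14, 8.22 and 6.76, and 7.51 and 6.24, so that PE + JQ1 stayed near JQ1 (0.93 ± 0.13). The adjusted p of all 5 was 0.070.

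Seen over all genes, PE effects were smaller with JQ1, while the median absolute JQ1 effect was 0.35 with PE and 0.33 in vehicle. The 217 genes higher by at least 2-fold with PE without JQ1 had a median PE effect of 1.27, and 0.74 with JQ1. The 191 genes lower by that much had −1.27 and −0.75. Genes chosen by a large value tend to have smaller ones elsewhere, and the reverse choice also gave smaller values: 102 genes higher by at least 2-fold with PE in the presence of JQ1 had a median of 1.34 there and 1.15 without JQ1. For JQ1, 1168 genes lower by at least 2-fold in vehicle had medians of −1.39 in vehicle and −1.35 with PE. By the test, PE changed 3314 genes without JQ1 (24.0%) and 1664 with it (12.1%), or 837 (6.07%) and 99 (0.718%) without the block, and JQ1 changed 7279 in vehicle (52.8%) and 7782 with PE (56.4%).

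The departures with ET-1 are set beside those with PE, but both contrasts use the same vehicle and JQ1 libraries, so agreement between them is no separate evidence. The ET-1 interaction had 5 calls (0.0363%) with the block and 0 without it. They were Myh3 (3.20) and Sct (2.0) above the additive level (0.0145%) and, below it (0.0218%), Cdca8 (−0.97), Fbxo5 (−0.93) and Ube2t (−0.90). The PE departures of the last 3 were −0.54, −0.71 and −0.54. Wfdc1 departed by −1.75 with ET-1 (adjusted p = 0.098), Ift43 by −0.65 (adjusted p = 0.090) and Ptgds by 1.23 (adjusted p = 0.067). Ccdc107 had −0.69 (adjusted p = 0.098) and Nxnl2 −0.47 (adjusted p = 0.11). The RF00017 copy had −0.03 with ET-1 (adjusted p = 0.98) against −2.43 with PE, and AABR07034673.1 had −0.05 (adjusted p = 0.96) against 2.50. The JQ1 effect in PE against that in ET-1, which uses neither vehicle group, differed for 1 gene (0.00725%), AABR07034673.1 (2.54, adjusted p = 0.0053, 0 genes called without the block). That gene was 2.50 and 2.33 with ET-1 and listed at 0 with ET-1 and JQ1. With PE it was listed at 0 both without and with JQ1, so JQ1 could not lower it there. A positive difference was therefore fixed once JQ1 lowered the gene with ET-1, and its size follows the pseudocount.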

How the data were processed

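Total RNA of 12 rat cardiomyocyte libraries was sequenced after ribosomal RNA depletion with a stranded kit, per the labels' protocols. The build was rn6 and the listed tools were DESeq2 1.24.0, StringTie 1.3.4d, STAR 2.7.1a and Trim Galore 0.6.0, per the submitters' processing notes. The deposited tables give coverage (signal) per base and FPKM for 41078 transcripts of 32883 genes, per the file headers. The authors' FPKM is scaled by transcript length and library total. The tables hold no counts, so a count test was not used. Gene coordinates are as deposited.

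Transcript FPKM was added up per gene. Library factors of 0.873 to 1.127 (median of ratios over 15551 genes present in all 12 libraries) put the libraries on 1 scale. The 13793 genes that reached 1 rescaled FPKM in 2 or more libraries entered limma 3.58.1 (R 4.3.3, trended and robust variance) on log2(rescaled FPKM + 0.5), a scale that understates changes of low genes. The model fitted 6 group means to all 12 libraries with the replicate number as a block, because the contrast was formed within each replicate number. P-values were adjusted by Benjamini-Hochberg over all genes, and genes under 0.05 were called. Adjusted p-values come from this fit unless another is named. Same-numbered libraries deviated together in all 15 pairs of groups (correlations 0.16 to 0.67), so the numbers were taken to pair the libraries. The labels give the numbers without their meaning, so this pairing rests on the data. Python 3.11.15 was used for tables and figures.

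Named genes were the called genes with a gene symbol, the same sign in both replicates and a mean of at least 5 rescaled FPKM in 1 of the 4 groups (up to 14 per direction), up to 4 called members per list, up to 5 per direction for the difference between agonists, and 13 fixed genes. Some genes of these sets are not reported here. Members and lists were chosen with earlier results of these data known. Other list members are named after their values were seen. Wfdc1 was put in the list of secreted growth factors with its behaviour known. Beside the fit without the block, pseudocounts, filters, scalings, subsets of libraries and each library left out were tried.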

Additional observations from a re-analysis of the deposited data

Results flagged for a closer look

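Each gene here is listed because its JQ1 effect differed between 2 treatments by the interaction term. Between PE and vehicle they were Wfdc1 (−2.57), the RF00017 copy (−2.43), Ift43 (−1.09), Ccdc107 (−0.98), Nxnl2 (−0.83), Ptgds (1.39), Sct (2.0), AABR07034673.1 (2.5) and Myh3 (2.87). Between ET-1 and vehicle they were Cdca8 (−0.97), Fbxo5 (−0.93), Ube2t (−0.9), Sct (2.0) and Myh3 (3.2), in contrasts that share the vehicle and JQ1 libraries with those of PE. Between PE and ET-1 the gene was AABR07034673.1 (2.54), which was listed at 0 with PE, so that a positive difference was fixed. All values are log2 differences from limma with the replicate block, and 0 of these genes passed without the block.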

How the results depend on the processing

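The 10 genes that departed with PE and JQ1 kept their direction under every alternative that could test them, but not their call. The replicate block set the count: without it 0 genes were called for PE, 0 for ET-1 and 0 for PE against ET-1. Fits of only the groups compared called 1, 0 and 0, and 0 of the 10 genes for PE were called there. For PE the count was 4 at a pseudocount of 0.1 and 15 at 1, 14 with no filter and 4 with a minimum of 5 rescaled FPKM, 11 on FPKM as deposited, 10 with upper quartile rescaling and 40 at an adjusted p of 0.1 (chosen after seeing the data), and with 1 library left out it ran from 0 to 9. For ET-1 it was 13 with no filter, 3 on FPKM as deposited and 0 to 3 with a library left out. For PE against ET-1 it was 6 with no filter, 0 with a minimum of 5, and 0 to 3 with a library left out. PE against vehicle without JQ1 gave 837 without the block, 718 in the compared groups and 708 to 3339 with a library left out. With JQ1 it gave 99, 0 and 81 to 1769, and 928 with no filter. JQ1 against DMSO gave 4411 in vehicle and 5030 in PE without the block, and 5430 to 7301 and 5786 to 7834 with a library left out. Departures of at least 1 in both replicates numbered 119 at a pseudocount of 0.1, 42 at 1 and 28 with the minimum of 5. The cause of these changes was not tested.

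With a library left out, Myh3 was called in 7 of 12 fits and AABR07034673.1 in 8, and the other called genes in 0 to 2. Signs turned for genes that were not called: Myh6 ran from −0.52 to 0.18, positive without JQ1 replicate 2, Myh7 from −0.0091 to 0.40, negative without JQ1 replicate 1, and Hexim1 from −0.11 to 0.29, negative without vehicle or PE replicate 2. Acta1 ran from −0.30 to 0.69, negative without replicate 1 of JQ1 or PE + JQ1 and without replicate 2 of vehicle or PE. Over all alternatives, chosen for the lists after seeing the data, the median ran from −0.65 to −0.37 for cell cycle, −0.67 to −0.27 for sterol synthesis and 0.23 to 0.42 for fibroblast markers, while that of hypertrophy genes ran from −0.08 to 0.27. FPKM values hold no read depth, so counting error is unknown.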

Other observations

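Outside the comparisons, some large departures came from 1 or 2 libraries or from listed zeros. The neighbouring genes AABR07064716.2 and AABR07064716.3 departed by −15.87 and 15.80 without a call (adjusted p = 0.55 and 0.58). The first was 2.77 in vehicle replicate 2 and 2.61 in PE + JQ1 replicate 1 and at least 131700 in the other 6 libraries, and the second was high in those 2 libraries and at most 0.275 in the rest. Coa6, a mitochondrial assembly factor, was listed at 0 in both PE libraries and at 6.38 to 9.86 in the other 6 (departure 4.13 ± 1.51, adjusted p = 0.34, and 0.0055 in the fit of the 8 libraries alone).

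Some further muscle genes had large departures without a call. Klhl41 and the small heat shock protein Hspb6 were raised by PE in the presence of JQ1 (1.55 and 2.21, adjusted p = 0.014 and 0.0030). Klhl41, a sarcomere-associated kelch protein, was 60.0 and 86.7 in vehicle, 85.3 and 90.8 with PE, 5.80 and 11.6 with JQ1, and 18.0 and 34.9 with PE + JQ1 (departure 1.27 ± 0.37, adjusted p = 0.25). Hspb6 was 9.84 and 18.7, 22.9 and 26.5, 10.6 and 22.4, and 70.1 and 76.6 in the same order (1.37 ± 0.30, adjusted p = 0.16), with both PE + JQ1 libraries above the other 6. Casq1, the skeletal calsequestrin, was 16.6 and 65.0, 71.7 and 163, 6.01 and 8.84, and 9.26 and 9.32 (−1.37 ± 0.53, adjusted p = 0.35), and its PE effect with JQ1 was 0.33 (adjusted p = 0.60). Kcnip2, a subunit of potassium channels, was 3.88 and 12.3, 0.776 and 1.88, 0.132 and 0.229, and 0.0599 and 0.0708, so PE + JQ1 was the lowest group (1.84 ± 0.48, adjusted p = 0.21). The additive level of Kcnip2 was negative in both replicates, so a positive departure was fixed and its size follows the pseudocount. LOC100911951, whose values nearly equal those of Kcnip2, had 1.82 ± 0.49 (adjusted p = 0.22), and their reads cannot be told apart here.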
